A study of Homo sapiens with 2 samples.

Results

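The 6 mRNAs described here encode enzymes and a regulator that move phosphate groups: AK1, an adenylate kinase; ACYP1, an acylphosphatase; SHPK, the sedoheptulokinase; INPP5K, an inositol polyphosphate 5-phosphatase; CAMK1D, a calcium/calmodulin-dependent kinase; and PPP1R37, a regulatory subunit of protein phosphatase 1. They are 6 of the 104 genes in the deposited table of a SYNJ2BP RIP-seq experiment. They were chosen by gene symbol, with their FPKM in both libraries already known, from a list made by the authors in which every gene was higher with the SYNJ2BP antibody than with IgG. The levels and ratios below are therefore a description and carry no test.

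RIP-seq sequences the RNA that an antibody pulls out of a cell lysate together with the protein it recognizes. Cells of HEK293T, an established line from human embryonic kidney, were lysed without any treatment, and RNA was recovered either with an antibody to endogenous SYNJ2BP (SYNJ2BP IP) or with a nonspecific IgG as negative control. SYNJ2BP, synaptojanin-2-binding protein, sits in the outer mitochondrial membrane and carries a PDZ domain. The comparison asks which mRNAs accompany it. Each arm has 1 library, so no replicate spread, error or p-value can be given, and neighbours in any order of levels below cannot be said to differ. RNA from before the pulldown is not analysed here, so recovery by the antibody and a high cellular level of an mRNA cannot be told apart. A list of genes higher in a pulldown cannot check the identity of the cells, and SYNJ2BP's own mRNA has no row in it.

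Phosphate transfer links energy supply to signalling. Adenylate kinase converts ATP and AMP into ADP and back, which keeps the adenine nucleotide pool near equilibrium, and acylphosphatase hydrolyses the reactive phosphate of acyl phosphates. Sedoheptulokinase feeds sedoheptulose into the pentose phosphate pathway as its 7-phosphate. Inositol 5-phosphatases remove a phosphate from phosphoinositides and soluble inositol phosphates, and so dampen signals such as that of insulin. Synaptojanin-2, the partner after which SYNJ2BP is named, belongs to the same enzyme family as INPP5K. Protein phosphorylation by CaM kinases follows a rise in calcium, and protein phosphatase 1 removes phosphate from serine and threonine under the direction of regulatory subunits such as PPP1R37.

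The values are FPKM, in which the fragments of a gene are divided by its transcript length and by the size of the library, so that levels of different genes can be set side by side. All 6 mRNAs were far higher in the SYNJ2BP IP than in IgG, as is every gene of the list. ACYP1 was the highest of the 6 in the SYNJ2BP IP, at an FPKM of 126.7, and the lowest in IgG, at 0.00116. AK1 followed at 94.9 with the SYNJ2BP antibody and 0.241 with IgG. These were the 2 metabolic enzymes with the highest levels of the 6, and together they held 70.0% of the 6 mRNAs' summed FPKM in the SYNJ2BP IP.

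INPP5K was measured at 36.4 with the SYNJ2BP antibody and 0.187 with IgG. PPP1R37 had 24.7 and 0.0881. CAMK1D, the only protein kinase of the 6, had 21.2 and 0.0638. SHPK, the remaining metabolic enzyme, was the lowest of the 6 in the SYNJ2BP IP, with 12.8 against 0.0433 in IgG. The SYNJ2BP IP level thus spanned 9.89-fold from SHPK to ACYP1, while PPP1R37 and CAMK1D differed by only 1.16-fold. Among the 6, the lowest SYNJ2BP IP value, that of SHPK, lay above the highest IgG value, that of AK1. Over the whole list the ranges of the libraries overlapped, with a lowest SYNJ2BP IP value of 0.619 and a highest IgG value of 10.3. The 6 were picked with both values known, so nothing is read from their separation.

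**Figure D1:**
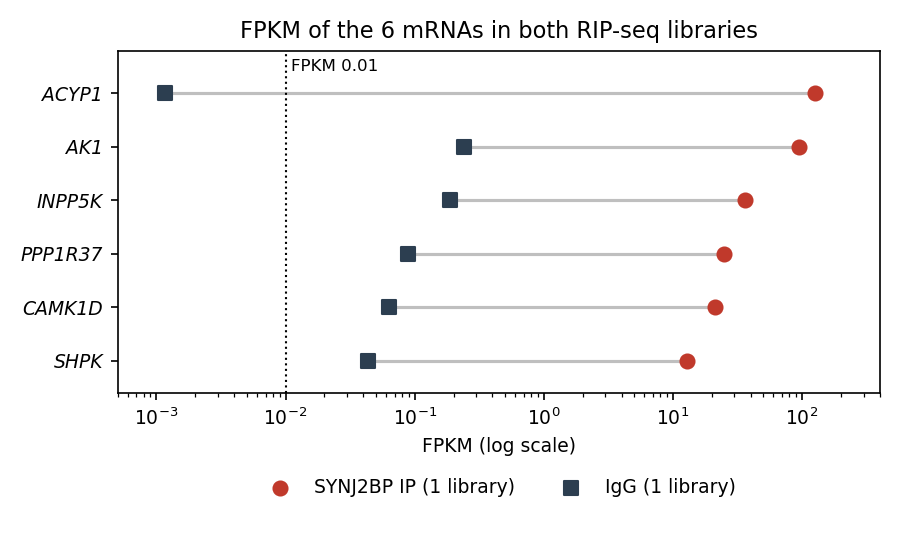
FPKM of the 6 mRNAs on a log scale in the SYNJ2BP IP library (circles) and the IgG library (squares), 1 library each, ordered by the SYNJ2BP IP value. The 5 mRNAs other than ACYP1 keep one order in both libraries, from AK1 down to SHPK, and ACYP1 alone lies left of the dotted line at 0.01.

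Within the list, the 6 mRNAs stood at ranks 4 (ACYP1), 6 (AK1), 21 (INPP5K), 31 (PPP1R37), 34 (CAMK1D) and 49 (SHPK) of 104 by SYNJ2BP IP level. All 6 lay above the list's median of 12.2, SHPK only just, at 1.05 times that median, and ACYP1 at 10.4 times. The median of the 6 was 30.5, beside 11.7 for the other 98 genes. Together they made up 6.33% of the list's summed SYNJ2BP IP level and 2.28% of its summed IgG level. Both sums rest largely on SCRIB and MPDZ, which alone held 36.8% and 20.2% of the summed SYNJ2BP IP level. These genes also had the highest IgG levels of the list, 6.90 and 10.3, so nothing is read from the shares of the 6.

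The difference between the libraries was expressed as log2(FPKM + 1) in the SYNJ2BP IP minus the same in IgG, a scale that understates the difference of low genes. It was 6.99 for ACYP1, 6.27 for AK1, 4.98 for INPP5K, 4.56 for PPP1R37, 4.39 for CAMK1D and 3.73 for SHPK. All 6 were at least 4-fold higher on this scale, beside 87 of all 104 genes, or 83.7%. Because the 6 were selected with this same contrast known, nothing is read from that count. The median of the 6 was 4.77, and that of the whole list was 3.72.

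A plain ratio of FPKM says more about the 5 mRNAs that were measurable in IgG. Its size was read where the IgG level was 0.01 or more, which held for 36 of the 104 genes and for all of the 6 except ACYP1. AK1 had the highest ratio of the 5, 393.7, followed by CAMK1D with 333.0, SHPK with 295.8, PPP1R37 with 280.4 and INPP5K with 194.6. Thus the ratio varied 2.02-fold among these 5 mRNAs, while their SYNJ2BP IP level varied 7.41-fold and their IgG level 5.56-fold. The order by ratio was not the order by level, since SHPK, the lowest in both libraries, had a higher ratio than PPP1R37 and INPP5K.

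A ratio of at least 200 was found in 4 of the 5, beside 10 of the 36 genes with a readable ratio, or 27.8%, and 6 of the 31 that are not among the 6 mRNAs. The 5 ranked 3 (AK1), 5 (CAMK1D), 6 (SHPK), 8 (PPP1R37) and 11 (INPP5K) of 36. Over all 104 genes, where values near 0 in IgG set the top of the order, the same 5 ranked 70, 73, 74, 76 and 79 by plain ratio, and ACYP1 ranked 54, so that none of the 6 was in the upper part of that order. Their median ratio was 295.8, and that of the other 31 genes was 104.1. Every one of the 5 lay above the median ratio of the 36 genes, 112.5, and below their median IgG level, 0.260. In the SYNJ2BP IP only AK1 lay above the median of the 36 genes, 36.4, with INPP5K directly under it. These positions hold among the 36 readable genes alone, and over the whole list they turn. By IgG level the 5 ranked 20 (AK1), 22 (INPP5K), 30 (PPP1R37), 32 (CAMK1D) and 33 (SHPK) of 104, highest first, and ACYP1 ranked 40. The median IgG level of the 6 was 0.0759, beside 3.65e-05 for the other 98 genes, and 83.3% of the 6 were readable against 31.6% of the others. As the 6 were picked with these ratios known, this describes them and supports no statement about enzymes of this kind.

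Other genes fell between them in order of ratio. DIABLO, which encodes a mitochondrial protein released in apoptosis, came between AK1 and CAMK1D with 378.1, and ZNF260, a zinc finger gene, came between SHPK and PPP1R37 with 282.8. NDST1, an enzyme of heparan sulfate synthesis, followed PPP1R37 closely with 278.9. GPR98, directly above AK1, had 558.1 on an IgG FPKM of only 0.0125. INPP5K lay between the polarity scaffold gene SCRIB, with 267.2, and the readthrough gene RNASEK-C17orf49, with 153.3.

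**Figure D2:**
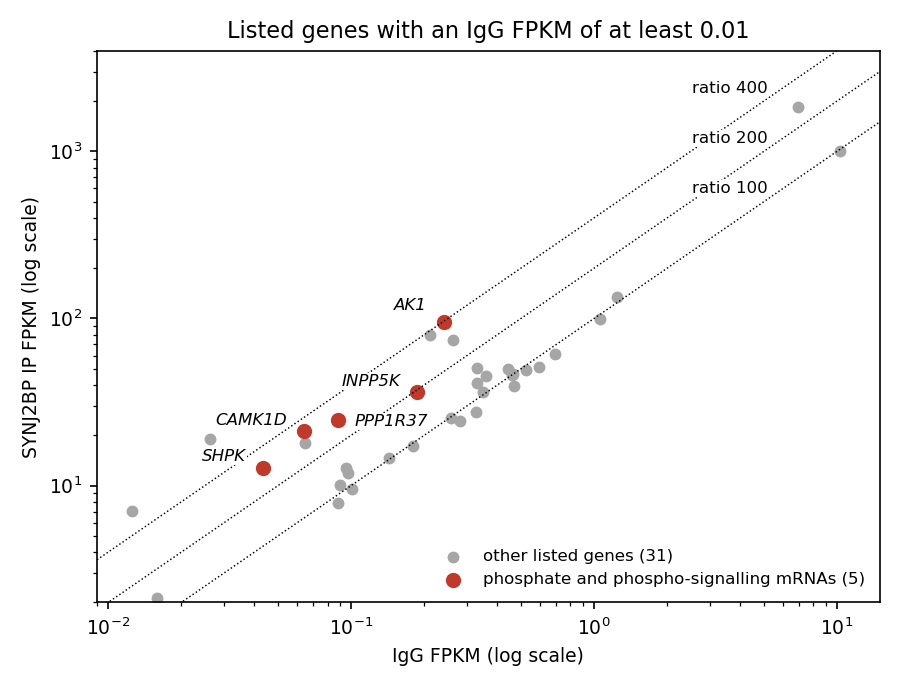
SYNJ2BP IP against IgG FPKM, both on log scales, for the 36 listed genes at 0.01 or more in IgG, where dotted lines mark ratios of 100, 200 and 400 and the 5 readable mRNAs of this group are in red. AK1, CAMK1D, SHPK and PPP1R37 lie between the 200 and 400 lines and INPP5K just under 200, while 25 of the 31 grey points lie under the line of 200.

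SYNJ2BP IP and IgG levels rose together among these 5 mRNAs: AK1 was highest, then INPP5K, PPP1R37, CAMK1D and SHPK in both libraries, a Spearman's rho of 1 across 5 genes. Over the other 31 genes with a readable ratio the rho was 0.86. These are descriptions across genes, which are not replicates. All points come from the same pair of libraries and share the normalization to transcript length, and no gene of the list has a ratio under 84.8, which by itself ties both values together.

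ACYP1 did not follow this order. Its IgG value of 0.00116 lay below those of AK1, 0.241, and SHPK, 0.0433, by a factor that is not read at so low a level, although its SYNJ2BP IP level was 1.34 times that of AK1. It belongs with the 68 listed genes whose IgG value was under 0.01, and there it stood out by abundance. None of these 68 had a higher SYNJ2BP IP level, the next being TRIT1 with 64.4, and their median was 8.03, so that ACYP1 reached 15.8 times the median. In IgG it lay at the upper end of that group, since only 3 of the 68 had a higher IgG level.

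How little IgG signal underlies these values can be put in fragments, since FPKM counts fragments per kilobase against the mapped fragments. The IgG level of ACYP1 would equal 1 fragment per kilobase only in a library of 864000000 mapped fragments. For SHPK that size was 23100000 fragments, for CAMK1D 15700000 and for PPP1R37 11400000, and for INPP5K and AK1 it was 5350000 and 4150000. The depth of the libraries is unknown, so counts behind the 6 IgG values cannot be given.

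The amount added before taking logarithms set the order of the 4 mRNAs below ACYP1 and AK1. With 1 or 10 added, INPP5K came next after AK1 and SHPK last. With 0.1 added, PPP1R37, CAMK1D and INPP5K were almost level, at log2 differences of 7.04, 7.03 and 6.99. With 0.01 added, CAMK1D came next at 8.17, and INPP5K, whose plain ratio is the lowest of the 5, moved to last place at 7.53. ACYP1 stayed first and AK1 second under all 4 amounts. With 0.01 added only these 2 lay above the list's median, which was then 8.43, whereas all 6 did with 0.1, 1 or 10.

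**Figure D3:**
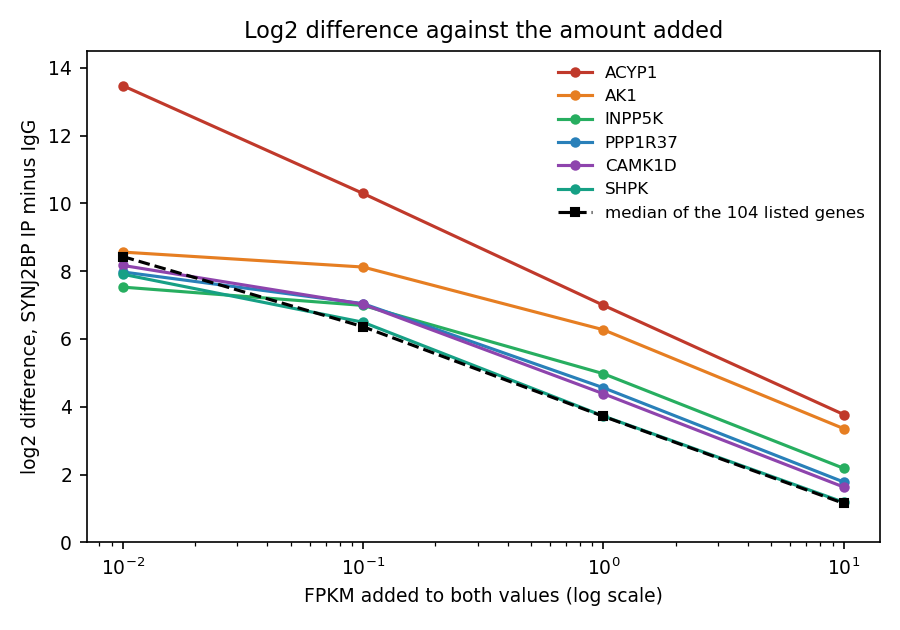
Log2 difference (SYNJ2BP IP minus IgG) of the 6 mRNAs against the FPKM added to both values, on a log axis from 0.01 to 10, with the median of all 104 listed genes dashed. The line of SHPK runs along the dashed median at 1 and 10, and at 0.01 the 4 lines below AK1 lie under the median.

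The listed genes most like each mRNA were found by the distance between their log2(FPKM + 1) values over the 2 libraries. For AK1 these were DIABLO, at a distance of 0.25, and ZNF260, at 0.35, and the same 2 genes came nearest to ACYP1, at 0.72 and 0.84. INPP5K was nearest to the transcription factor gene SIM1, at 0.19, and to the kinetochore gene ZWILCH, at 0.24. SIM1 had nearly the same SYNJ2BP IP level as INPP5K, 36.4, but a higher IgG level, 0.349, and so a ratio of 104.1. PPP1R37 was nearest to RTN3 and ZSCAN23, at 0.12 and 0.13, CAMK1D to PTTG1IP and NFKBIL1, both at 0.09, and SHPK to COG8 and LDOC1L, both at 0.07. Likeness here rests on 2 values per gene and mostly on the SYNJ2BP IP level, because IgG values near 0 add almost nothing on this scale.

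Of 105 symbols of 6 families searched for, 6 were in the list, each of them one of the 6 mRNAs. Of 19 adenylate and other nucleotide kinases only AK1 was listed, of the 2 acylphosphatases only ACYP1, and of 11 enzymes of the pentose phosphate pathway only SHPK. INPP5K was the only one of 18 inositol and phosphoinositide phosphatases, which include SYNJ2. CAMK1D was the only one of 12 CaM kinase genes and PPP1R37 the only one of 43 genes for protein phosphatase 1 subunits and regulators. Genes outside the table were not analysed here, so their levels are unknown. The list holds only 104 genes, and its share of all genes was not computed. Nothing is therefore read from the missing relatives. The 6 come from 6 families and are not treated here as parts of one pathway. None of the 6 is among the 11 of 104 genes that the table marks for CLIP (crosslinking immunoprecipitation). The paper picked those 11 for follow-up as hits related to mitochondria, so a missing mark is not a failed test.

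The 6 genes lie on 5 chromosomes. On hg19, AK1 (ENSG00000106992) is listed at chromosome 9 from 130628758 to 130667687, ACYP1 (ENSG00000119640) at chromosome 14 from 75519923 to 75545126, and CAMK1D (ENSG00000183049) at chromosome 10 from 12391480 to 12877545. PPP1R37 (ENSG00000104866) is listed at chromosome 19 from 45574757 to 45808541. INPP5K (ENSG00000132376, from 1397864 to 1420182) and SHPK (ENSG00000197417, from 3468737 to 3539616) share chromosome 17, 2.05 Mb apart. No locus of the 6 overlapped another listed locus. The share of the other listed loci that do was not computed, so nothing is read from this. The listed gene next to CAMK1D, CCDC3, begins 61.1 kb away and is also its nearest protein-coding neighbour in RefSeq. The SYNJ2BP IP level of CCDC3 was 11.6, and its IgG level was practically 0.

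For 4 of the 6 genes the listed locus was at least 1.5 times as long as the RefSeq gene (GRCh38.p14). The same held for 33 of the 86 other genes that could be matched, or 38.4%. PPP1R37 had a listed locus of 233.8 kb for a gene of 54.1 kb, 4.32 times as long. The locus of AK1 was 2.96 times as long as its gene (38.9 kb against 13.1 kb), that of SHPK 2.53 times and that of ACYP1 1.55 times. Those of INPP5K and CAMK1D matched their genes, at 1.01 and 1.00 times. The longest locus by far, 486.1 kb for CAMK1D, thus belongs to a gene that is itself that long.

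**Figure D4:**
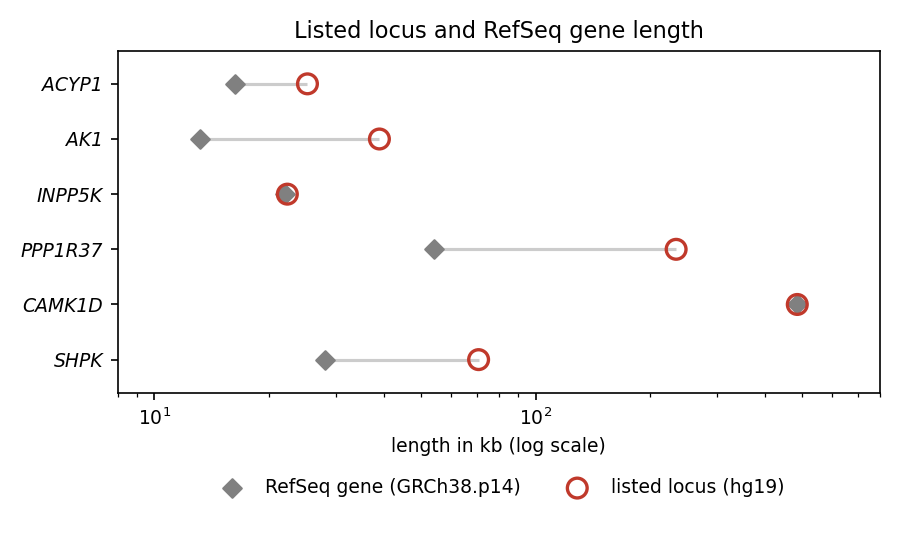
Length in kb, on a log scale, of the locus listed for each of the 6 genes (open circles, hg19) and of the gene in RefSeq (diamonds, GRCh38.p14). Circle and diamond coincide for INPP5K and CAMK1D and lie farthest apart for PPP1R37, at 4.32 times.

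Close neighbours were found beside genes with long loci and beside INPP5K, whose locus is not long. In RefSeq, SHPK overlaps TRPV1, a heat-gated cation channel gene, and lies 0.209 kb from CTNS, which encodes the lysosomal cystine transporter, with TRPV3 50.4 kb away on the other side. ACYP1 lies 0.151 kb from ZC2HC1C and 1.78 kb from the mismatch repair gene MLH3. A readthrough gene that joins ST6GALNAC4, ST6GALNAC6 and AK1 overlaps AK1, whose nearest separate coding genes are ST6GALNAC6 at 5.70 kb and ENG at 11.8 kb. PPP1R37 has GEMIN7 at 1.66 kb and NKPD1 at 2.46 kb. INPP5K has PITPNA, a phosphatidylinositol transfer protein gene, at 1.11 kb and MYO1C at 1.89 kb, and it overlaps the coding gene LOC107984156. The listed locus exceeded the RefSeq gene by 179.7 kb for PPP1R37, 25.79 kb for AK1 and 8.955 kb for ACYP1. Each excess was larger than the gap to either separate coding neighbour named here, but the side on which it lies was not computed. Whether reads from such neighbours entered the gene-level values was not tested. RefSeq gives 3 coding transcripts each for AK1, ACYP1, INPP5K and CAMK1D and 1 each for SHPK and PPP1R37, and the deposited values do not say which of them were recovered.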

How the data were processed

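RIP-seq was analysed from 1 SYNJ2BP IP and 1 IgG library of HEK293T cells. The authors deposited gene-level FPKM for a chosen list of genes, together with fold changes between the libraries (not used) and a CLIP mark. How the list was selected is not stated in the paper, labels or table. Genome build hg19 and the tools HISAT2 2.0.4, cutadapt 1.9.3, Cuffdiff 2.2.1 and Cufflinks are credited to the submitters' notes, which give no roles. FPKM keeps no depth, so no counting interval was formed.

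Log2 differences used a pseudocount of 1, and genes were counted at 4-fold on that scale. Plain ratios were read where IgG reached 0.01 and counted at 200. Named genes are the 6 members, the 2 genes nearest to each over both libraries, listed genes of the families, and those beside a member by ratio. CCDC3, MPDZ, TRIT1, PDPR and the RefSeq neighbours were named after their values or places were seen. Members and lists were chosen with earlier results of these data known. All 6 symbols matched RefSeq (GRCh38.p14, used for names, neighbours and lengths). Listed identifiers were not checked against symbols, and protein or transcript sequences were not used. Python 3.11.15, pandas 2.3.3, numpy 2.4.6 and matplotlib 3.10.9 were used. The log2 formula was run on values built from known differences, which checks the code and nothing about these data.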

Additional observations from a re-analysis of the deposited data

How the results depend on the processing

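No paired analysis was possible because each group has 1 library, and none could be left out. Every one of the 104 listed genes reached 4-fold at an added amount of 0.1 or 0.01, so nothing is read from the 6 members doing so. Adding 10 left 23 of the 104 genes at 4-fold or more, among them 3 members (ACYP1, AK1 and INPP5K). At limits of 2-fold or 8-fold the members that passed remained 6, and the list was not counted there. Their median log2 difference, 4.77, was 7.03 with 0.1 added, 8.07 with 0.01, 1.98 with 10, and 4.98 for the 5 members at 15 or more in the SYNJ2BP IP, a filter that SHPK does not pass. A larger amount added lowers each difference by construction. At an IgG limit of 0.1 only 2 members, AK1 and INPP5K, had a readable ratio, and 1 of them reached 200. At 0.001, ACYP1 is read as well, so that 6 are readable and 5 reach 200. The same counts over the list were not computed at either limit, so nothing is read from those of the members. The median ratio, 295.8, was 314.4 at the limit of 0.001 and 294.1 at 0.1. Adding 1 to both FPKM values gave 23.6, adding 0.1 gave 130.3 and adding 0.01 gave 251.9. All 6 members lay above the list's median SYNJ2BP IP level, but 5 when clone-based and readthrough names were left out, 3 among the genes with an FPKM of at least 15, and 2 against the genes readable in IgG. What depth limits was not assessed, since it is unknown.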

Other observations

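A further 7 listed genes were picked as related to phospho-signalling. No annotation was used to pick them, only their names, and the pick is not complete. PDPR, a gene for a regulatory subunit of pyruvate dehydrogenase phosphatase, was left out. It had 13.6 in the SYNJ2BP IP, was near 0 in IgG and is marked for CLIP. PEA15, a phosphoprotein that binds ERK kinases, led the 7 in the SYNJ2BP IP with an FPKM of 32.8, and the kinase gene MAST2 had 29.5. The lowest were the casein kinase gene CSNK1G1, with 5.00, and MAPK11, a p38 kinase gene, with 3.0. PHLPP2, a phosphatase of AKT, had 9.85. All 5 of these were listed near 0 in IgG. RASA2, a Ras GTPase-activating protein gene, and PITPNM1, a phosphatidylinositol transfer protein gene, were readable in IgG. RASA2 had 24.5 and 0.28 in the respective libraries, a ratio of 87.5, and PITPNM1 had 14.7 and 0.143, a ratio of 102.5. Both ratios lay below that of each of the 5 readable members, the lowest being 194.6 for INPP5K. By plain ratio over all 104 genes the other 5 of the 7, near 0 in IgG, ranked above each readable member. They stood from rank 18 (CSNK1G1) to 59 (MAPK11), while AK1, the first of the readable members, stood at 70. The members were picked with their ratios known, so nothing is read from this comparison. At a SYNJ2BP IP level close to that of RASA2, PPP1R37 had 24.7 and an IgG level of 0.0881.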
